A study of Homo sapiens with 8 samples.

Results

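TrxR1 knockout (KO) cells were compared with control (EV) cells after both had been kept in medium without glucose. TrxR1 is the cytosolic thioredoxin reductase, encoded by TXNRD1. Both kinds of cell were LN229-TAZ(4SA), a derivative of the established human glioblastoma line LN229 named for TAZ(4SA), a form of the Hippo pathway coactivator TAZ that the knockout and the control cells share. The series holds 8 RNA-seq libraries in 4 groups of 2, namely KO_Glu- and EV_Glu- in glucose-deprived medium and KO_Regular and EV_Regular in regular medium. The 4 glucose-deprived libraries were taken by their column headings, KO cells against EV cells, and every gene with a mean log2 CPM (counts of reads scaled to library size, on the log2 scale) of at least 0 over the 8 libraries was included, which gave 13057 of 13730 genes. The headings mark these 4 libraries with the letters GlcN, letters with no explanation in the labels, taken here for culture without glucose. The labels give neither the number of knockout clones nor the time without glucose, nor do they say what the EV cells carried, so the effect of losing TrxR1 and any other difference between KO cells and EV cells cannot be told apart. The letters a and b name the libraries within each group and carry no order.

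Thioredoxin reductase uses NADPH to keep thioredoxin reduced, and thioredoxin passes those electrons on to peroxiredoxins, to ribonucleotide reductase and to disulfides in other proteins. In the cytosol most NADPH comes from the pentose phosphate pathway, which starts from glucose, so a cell without glucose has less of it to spend, while the import of cystine through SLC7A11 and its reduction to cysteine go on consuming it. Oxidised or misfolded proteins are known to release 2 transcription factors from restraint. NRF2 is freed from KEAP1 and drives antioxidant genes, and HSF1 is freed from chaperones and drives heat shock genes.

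The reads recovered from the table summed to 107229069 and 86833153 in KO libraries a and b and to 84130760 and 70083018 in EV libraries a and b. The 2 libraries of a group differed by more than counting error, with a chi-square per gene of 18.5 between the KO libraries and 4.06 between the EV libraries. The labels do not say that they came from separate cultures, so p-values measure the spread between libraries, which may be technical. The KO libraries differed along the GC content of transcripts. KO library b lay 0.060 below KO library a on the log2 scale in the decile of genes with the lowest GC content (median over genes) and 0.169 above it in the decile with the highest, whereas EV library b lay 0.001 above and 0.047 below EV library a in those deciles. Of the glioblastoma markers SOX2, NES, VIM, CD44, EGFR, GFAP and OLIG2, 6 of 7 were tested. The CPM of all 7 summed to 5084 and 4891 in KO cells and to 5264 and 5218 in EV cells. GFAP, the astrocyte intermediate filament, was below the filter. Of 10 leukocyte markers CD14 and CD68 were in the table, and of 7 endothelial markers 0 were. Of 8 epithelial markers KRT8, KRT14, KRT18 and CLDN4 were in the table. Their CPM summed to 235 and 239 in KO cells and to 246 and 237 in EV cells. Also in the table were 6 of 7 fibroblast and pericyte markers and 5 of 7 neuron markers. The former summed to 37.2 and 36.2 CPM in KO cells and to 38.8 and 42.3 CPM in EV cells. The latter summed to 98.3 and 97.9 CPM in KO cells and to 98.9 and 96.4 CPM in EV cells. PTPRC, EPCAM and CDH1 were not among the genes analysed here.

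**Figure D1:**
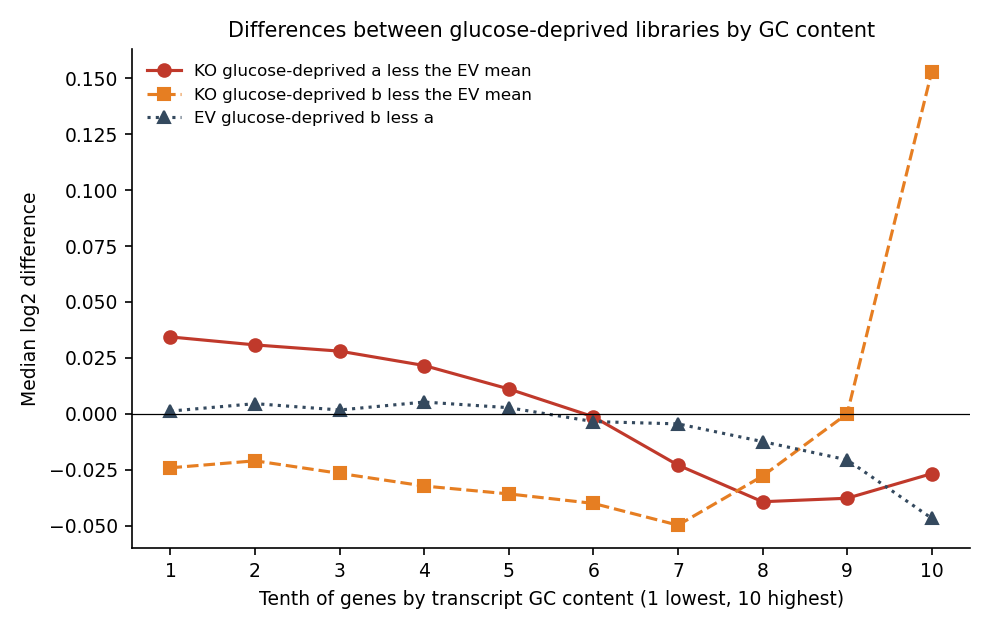
Median log2 difference between libraries (y axis) in deciles of genes ordered by the GC content of their transcripts (x axis, lowest at 1), for each KO glucose-deprived library less the mean of the EV glucose-deprived libraries and for EV library b less EV library a. KO library b less the EV mean runs from -0.024 in the decile with the lowest GC content to 0.153 in the highest, and KO library a less the EV mean from 0.034 to -0.027.

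Of the 13057 genes, 2561 differed between KO and EV cells in glucose-deprived medium, 19.6% of those tested, at an adjusted p under 0.05 in limma. 1181 genes were higher in KO cells (9.04%) and 1380 were lower (10.6%). Most differences were small, with a median log2 fold change of 0.26 among the genes called higher and -0.21 among those called lower. The large ones lay on the side of the knockout, since 35 genes were called higher by 1 or more on the log2 scale and 0 were called lower by as much, and at 0.5 or more there were 219 higher and 45 lower. Lower by 1 or more at an unadjusted p under 0.05 was 1 gene, and with voom on the recovered reads 0 were called, while 4458 genes in all passed an unadjusted p of 0.05. The number of calls rested on both EV libraries, falling to 892 without EV library a and to 852 without EV library b. It was 2792 without KO library a and 1540 without KO library b. The 35 genes raised by 1 or more were 64 without KO library a and 29 to 39 without another deprived library, while genes lowered by as much were 1 to 4 in those repeats. In these repeats the remaining library of the group is assumed to vary like the libraries of the other groups. In regular medium the same comparison of KO with EV cells called 946 genes (7.25%), 505 of them higher (3.87%) and 441 lower (3.38%). Of the 1181 genes higher in deprived KO cells 932 were not called in regular medium, and for 242 the difference between KO and EV was itself higher in deprived than in regular medium. That test of the interaction called 563 genes (4.31%), 301 of them higher in deprived medium (2.31%) and 262 lower (2.01%). It too rested on single libraries, with 176 called without EV_Glu- library a, 162 without EV_Glu- library b, 368 without KO_Glu- library b, 147 and 183 without EV_Regular library a or b and 1579 without KO_Glu- library a. The 946 calls in regular medium were 581 and 573 without EV_Glu- library a or b, 168 and 198 without EV_Regular library a or b, and 517 without KO_Regular library a.

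**Figure D2:**
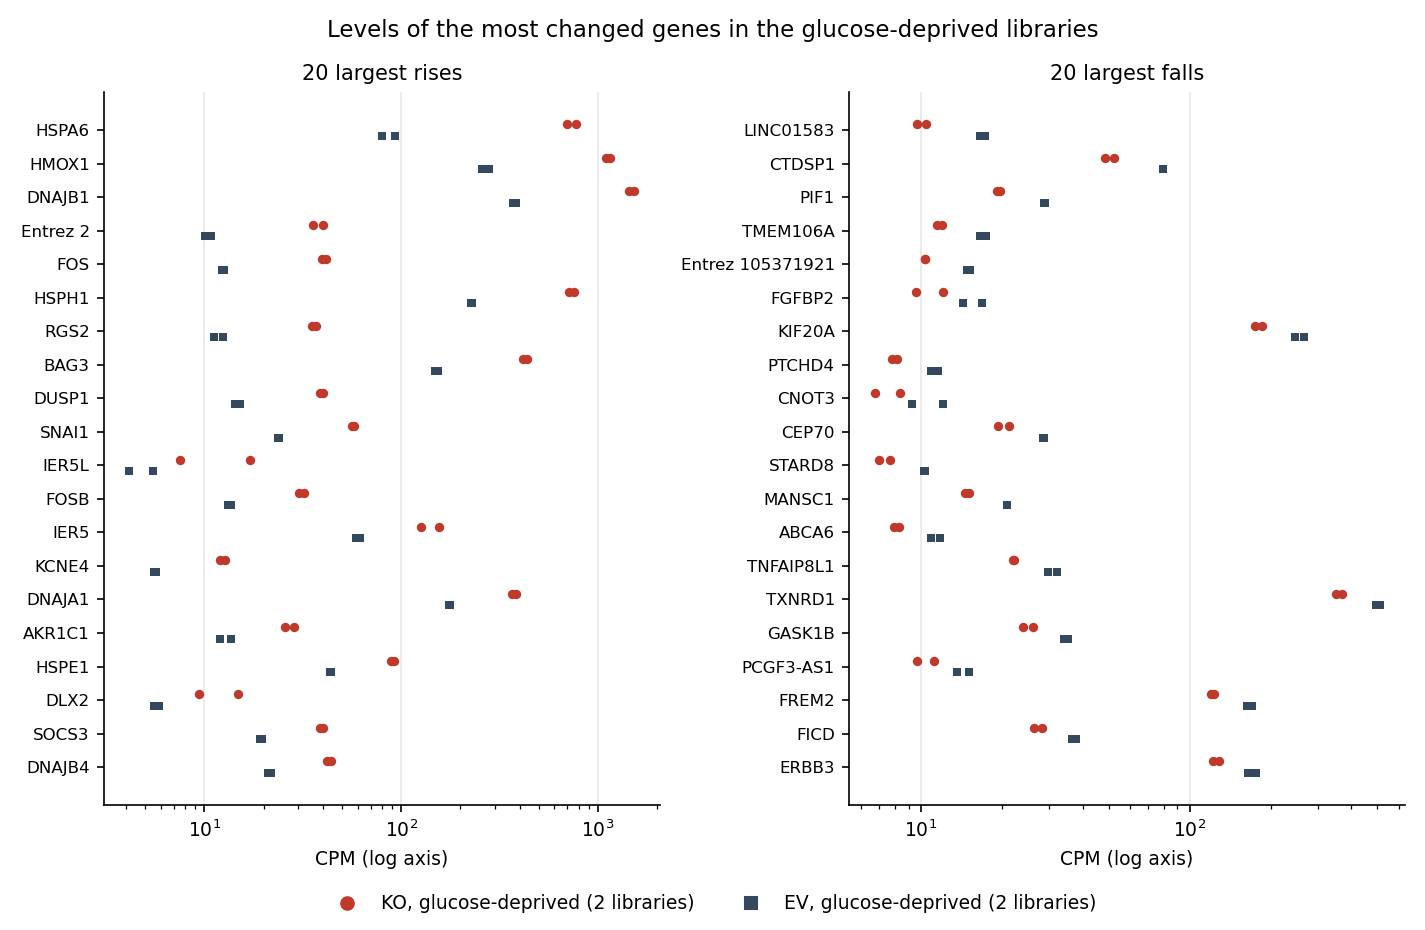
CPM on a log axis in each KO (circles) and EV (squares) glucose-deprived library for the 20 largest rises and the 20 largest falls among called genes whose groups did not overlap. HSPA6 has the widest gap, at 693 and 775 CPM in KO cells and 92.8 and 80.3 CPM in EV cells, while among the falls LINC01583 is at 9.67 and 10.5 CPM in KO cells and 17.4 and 16.6 CPM in EV cells.

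TXNRD1, the targeted gene, had 370.4 and 351 CPM in KO cells, against 509 and 493 CPM in EV cells. Both KO libraries lay below both EV libraries, a log2 fold change of -0.47 ± 0.036 (SE, n = 2 libraries a group, limma adjusted p = 2.0e-05). In regular medium TXNRD1 averaged 247 CPM in KO cells and 262 CPM in EV cells and was not called (-0.08, limma adjusted p = 0.19). Its interaction was -0.39 (adjusted p = 0.0025). The gene was still read at about the level of an abundant message in cells labelled as its knockout. A total over the whole gene says nothing of the edited site or of the protein, so it is no check of the label. The promoter window of TXNRD1 (RefSeq, GRCh38.p14, chr12:104215659-104215778, plus strand, ending at the base before the start) holds 1 match to the antioxidant response element searched, TGACNNNGC on either strand, the letters bound by NRF2 with its small MAF partners. It is shown because the targeted gene is itself a known NRF2 target, with the match in capitals and the line running 5′ to 3′.
TXNRD1: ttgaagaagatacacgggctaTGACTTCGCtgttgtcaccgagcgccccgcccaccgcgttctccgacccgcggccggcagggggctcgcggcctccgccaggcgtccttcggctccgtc

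Genes beyond TXNRD1 on the long arm of chromosome 12 were lower in KO cells as well. From the start of TXNRD1 (GRCh38 position 104215779) to the end of the last gene (position 133214832), 193 genes were tested, of which 74 were lower (38.3%) and 6 higher, against 10.6% lower over all genes. Their median log2 fold change was -0.13, with quartiles at -0.21 and -0.06, and it was nearly the same in KO library a (-0.12) and KO library b (-0.14), each set against the EV mean. The 74 falls were 30 without EV library a, 26 without EV library b and 46 without KO library b, while the median stayed between -0.12 and -0.14 without any of the 4 libraries. In regular medium the median of these genes was -0.10, with 30 lower and 2 higher, so that 150 of the 193 lay below 0 in both media. On the rest of the chromosome, before TXNRD1, 69 of 502 genes were lower (13.7%) at a median of -0.04. Among 179 segments of 10 Mb with 30 or more tested genes over the whole genome, the 3 lowest medians, -0.13, -0.13 and -0.14, were the 3 segments of chromosome 12 between 100 and 130 Mb, and the others lay between -0.10 and 0.09. The border at TXNRD1 was not sharp, since the 43 genes in the 10 Mb before it already had a median of -0.08, with 6 lower and 4 higher. The 2 called falls among cytosolic ribosomal proteins, RPLP0 (-0.21) and RPL6 (-0.14), are of this segment. So are POLE (-0.17) and RFC5 (-0.19), both chosen after their values were seen. POLE and RFC5 are 2 of the 3 called falls among DNA replication genes. RPL6 kept its call neither without EV library a (adjusted p = 0.13) nor without EV library b (0.21) or KO library b (0.15), nor without the variance trend or in a fit of the 4 deprived libraries alone, and POLE and RFC5 lost theirs without either EV library. RPLP0 passed in each of these repeats. Whether the position, the number of copies of the segment or a clone accounts for any of these values was not tested.

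**Figure D3:**
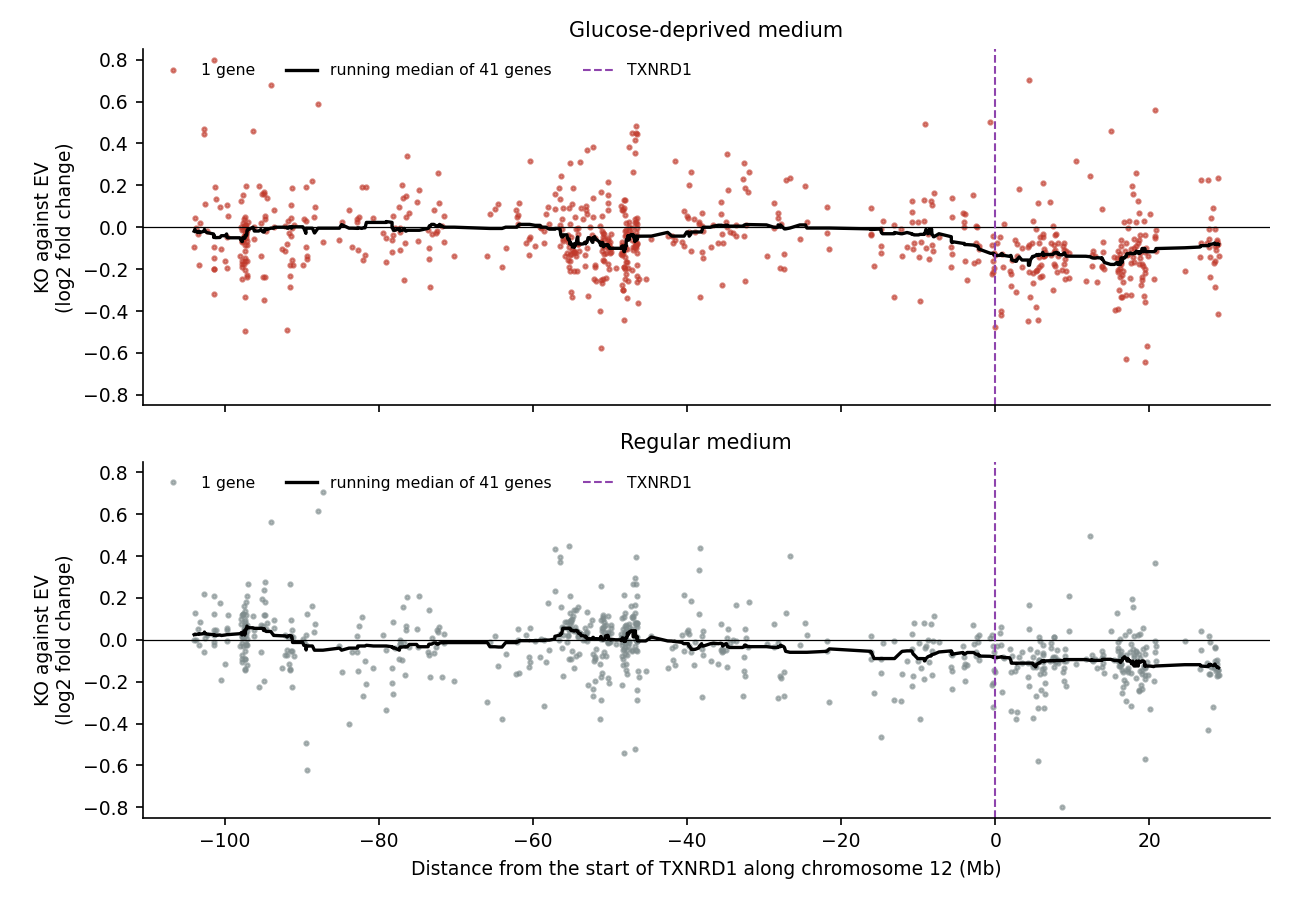
Log2 fold change of KO against EV cells (y axis) for each tested gene of chromosome 12 by its distance from the start of TXNRD1 (x axis, Mb), in glucose-deprived medium above and in regular medium below, with a running median over 41 genes as the black line and 1 gene in each medium drawn at the limit of 0.8. To the right of TXNRD1 the line stays below 0 in both media, with a median of -0.13 in glucose-deprived medium and -0.10 in regular medium.

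Heat shock genes were higher in deprived KO cells than in deprived EV cells, led by HSPA6, DNAJB1 and HSPH1. These make proteins that hold and refold unfolded chains. The 7 lists of cytosolic and mitochondrial chaperones and their regulators held 119 tested genes of 135, of which 47 were higher and 5 lower, against 9.04% higher and 10.6% lower over all genes. Their median log2 fold change was 0.10, beside -0.01 for all tested genes. Without either EV library 33 were higher, and the 5 falls were 2 without EV library a and 1 without EV library b. In regular medium 14 of the 119 were higher and 3 lower. Tested HSP70 list genes summed to 4914 and 4918 CPM in deprived KO cells and 2632 and 2593 CPM in deprived EV cells. In regular medium they summed to 4871 and 4972 CPM in KO cells and 4606.5 and 4582 CPM in EV cells. In EV cells the HSP90, small heat shock and chaperonin lists also summed lower without glucose. The DNAJ, mitochondrial and regulator lists summed higher, with DNAJ at 3111 and 3070 CPM, beside 2704 and 2688 CPM in regular medium. The difference between KO and EV was higher in deprived than in regular medium for 31 of the 119 and lower for 0 in limma (6 at an unadjusted p under 0.05 and 0 with voom).

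**Figure D4:**
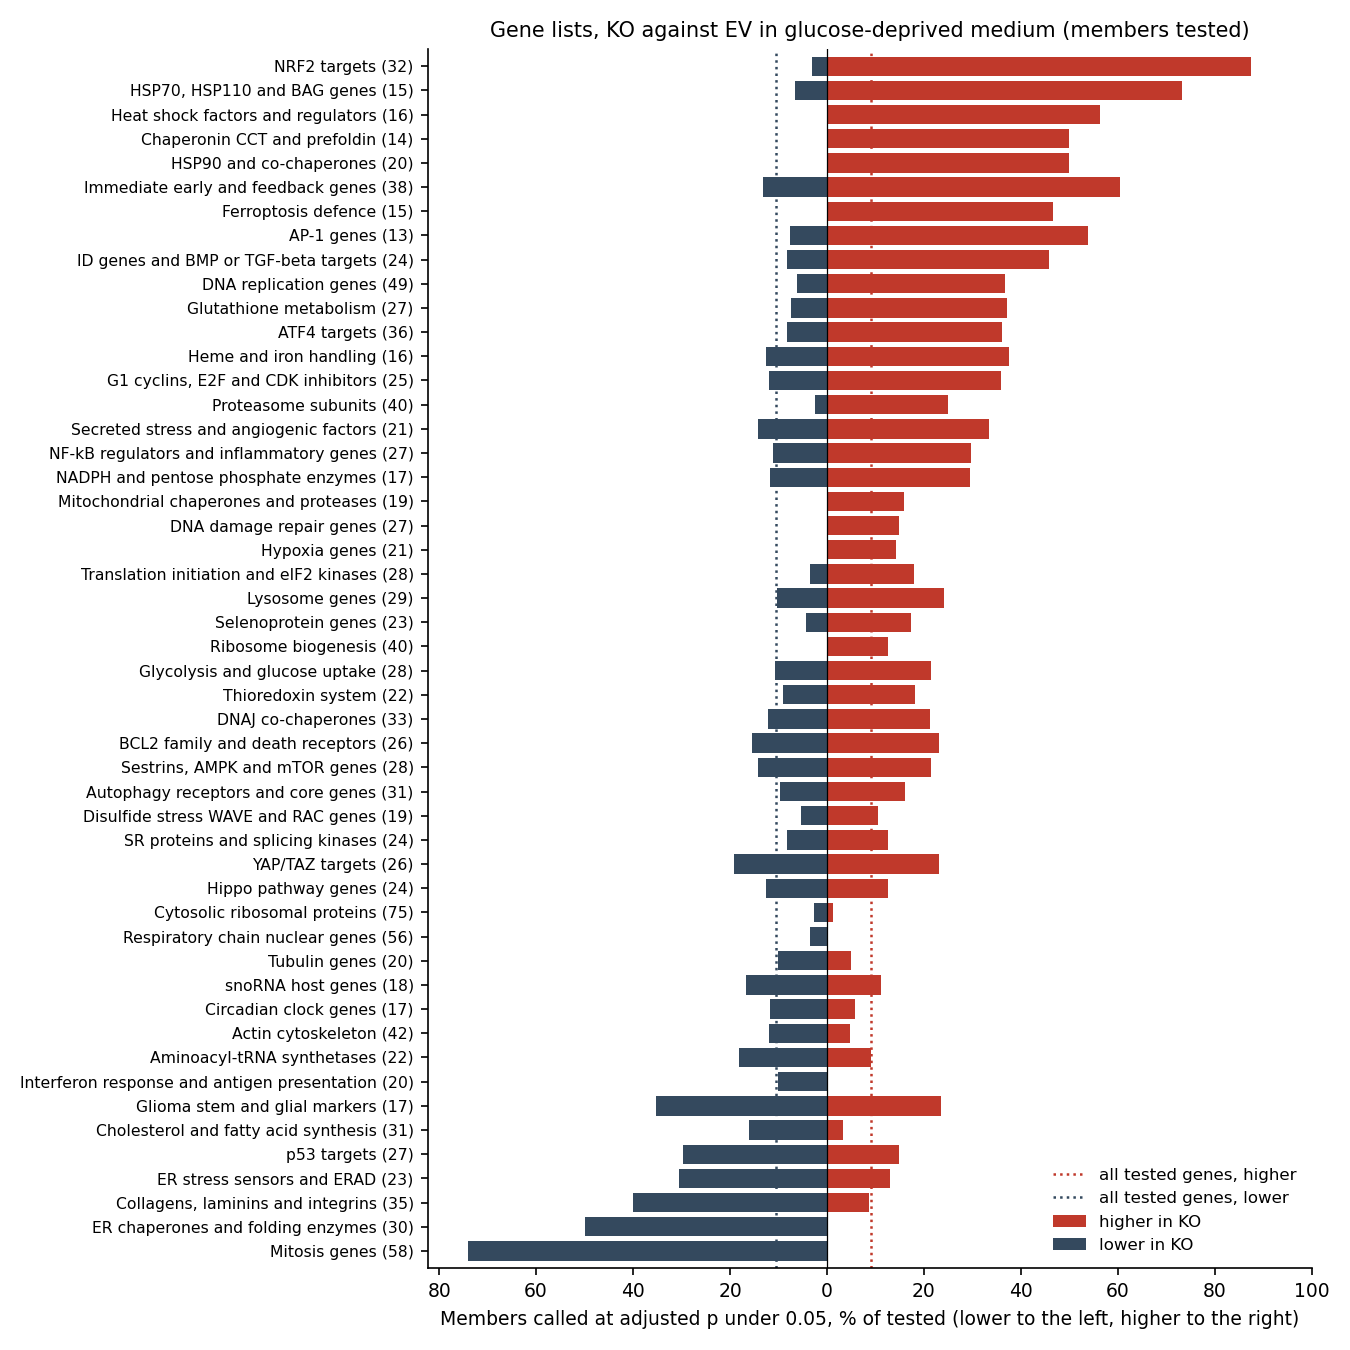
Share of tested members called higher (right) or lower (left) in KO than in EV glucose-deprived cells (x axis, % of members tested) for gene lists with 13 or more tested members, whose number stands in brackets. The dotted lines mark all tested genes, 9.04% higher and 10.6% lower. NRF2 targets and HSP70, HSP110 and BAG genes reach farthest to the right, and mitosis genes and ER chaperones farthest to the left.

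In the HSP70 machine 11 of 15 genes were higher and 1 lower, without EV library a 7 were higher, and without either EV library or KO library b 0 were lower in limma. HSPA6, an HSP70 gene silent in most unstressed cells, had 693 and 775 CPM in KO cells, against 92.8 and 80.3 CPM in EV cells (log2 fold change 3.09 ± 0.077, adjusted p = 4.1e-09). In regular medium it averaged 5.28 CPM in KO cells and 2.92 CPM in EV cells, against which both deprived groups stood far higher. HSPA6 has near-identical relatives whose reads the authors' counting may have split, and HSPA1A and HSPA1B were not analysed here. Among the less inducible members HSPA4L, a nucleotide exchange factor of the HSP110 family, had 61.2 and 61.5 CPM in KO cells, against 30.9 and 32.5 CPM in EV cells (0.95 ± 0.046, adjusted p = 6.6e-07). HSPA4L did not pass the test in regular medium, at 52.8 CPM in KO cells and 52.3 CPM in EV cells, levels between those of the deprived KO and EV cells. HSPA8, the constitutive HSP70 with many pseudogenes, had 1995 and 1885 CPM in KO cells, against 1209.9 and 1190.1 CPM in EV cells, and its means in regular medium were 3347 CPM in KO cells and 3063 CPM in EV cells. BAG2, an inhibitor of the ubiquitin ligase CHIP, rose by 0.57 and HSPA4 by 0.44.

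The J-domain proteins deliver clients to HSP70. DNAJB1, DNAJA1, DNAJB4 and DNAJB6, which act in the cytosol and nucleus, rose by 1.98, 1.08, 1.00 and 0.58. DNAJB4 had 44.0 and 42.0 CPM in KO cells, against 21.1 and 21.9 CPM in EV cells. DNAJB5 fell to 30.8 and 29.8 CPM in KO cells, against 39.2 and 40.3 CPM in EV cells (-0.39 ± 0.054, adjusted p = 0.00099). Of 33 J-domain genes 7 were higher and 4 lower, beside 9.04% higher and 10.6% lower over all genes. Without EV library a the counts were 5 and 2, and without EV library b they were 4 and 1.

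HSP90 and its co-chaperones followed. HSP90AA1, the stress-inducible HSP90, had 3818 and 3666 CPM in KO cells, against 2040.0 and 2055 CPM in EV cells (0.87 ± 0.040, adjusted p = 4.8e-07). HSP90AB1, its constitutive relative, had 2813 and 2623 CPM in KO cells and 2064 and 2002 CPM in EV cells (0.42), so the inducible form moved more. These genes have pseudogenes, which leaves the split of reads uncertain. FKBP4, a peptidyl-prolyl isomerase of steroid receptor complexes, had 194 and 198 CPM in KO cells and 113 and 111 CPM in EV cells (0.81 ± 0.033). CHORDC1, an HSP90 co-chaperone, rose by 0.96, and AHSA1, which speeds the ATPase of HSP90, by 0.48. Of 20 tested genes of this list 10 were higher and 0 lower in limma (1 at an unadjusted p under 0.05 and 0 with voom), and 8 of the 10 had a larger difference than in regular medium.

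The remaining lists hold chaperones of other folds and compartments. The chaperonin TRiC, which folds actin and tubulin, had 7 of 14 CCT and prefoldin genes higher and 0 lower in limma (0 also at an unadjusted p under 0.05 and with voom), among them TCP1 (0.41) and CCT4 (0.32). That count was 3 without EV library a and 3 without EV library b. The mitochondrial pair HSPD1 and HSPE1, transcribed from a shared promoter, had different increments. HSPE1 had 91.6 and 89.3 CPM in KO cells, against 43.3 and 43.9 CPM in EV cells (1.05 ± 0.048), while HSPD1 had 1202 and 1145 CPM in KO cells, against 820.4 and 800.1 CPM in EV cells (0.53 ± 0.042). Both genes have processed pseudogenes, so the difference between them is uncertain. Of the 19 mitochondrial chaperones and proteases 3 were higher and 0 lower in limma (1 at an unadjusted p under 0.05 and 0 with voom), beside 9.04% higher over all genes. HSPB1, the ubiquitous small heat shock protein, had 239 and 289.8 CPM in KO cells, against 132 and 135 CPM in EV cells (0.98 ± 0.084). The KO libraries of HSPB1 differed 1.21-fold, library b being higher, and its transcript is GC-rich at 64.3%, the kind of gene for which library b ran high, and the part of this in the difference was not tested. HSPB8, a partner of BAG3, had 4.11 and 5.37 CPM in KO cells and 3.41 in each EV library, a call lost without EV library a (adjusted p = 0.12), EV library b (0.12) or KO library b (0.17), without the variance trend and with voom.

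HSF1 and HSF2, the factors themselves, did not pass the test. HSF1 had 74.3 and 84.4 CPM in KO cells and 75.2 and 70.5 CPM in EV cells (0.12 ± 0.073, adjusted p = 0.28). Genes that act beside them did rise. ZFAND2A, an arsenite-inducible regulator of the proteasome, had 133 and 130.5 CPM in KO cells and 69.1 and 63.6 CPM in EV cells (0.99). IER5, a known activator of HSF1, had 126 and 155 CPM in KO cells and 62.0 and 58.8 CPM in EV cells (1.21), and SERPINH1, the collagen chaperone HSP47, rose by 0.56. Of 16 factors and regulators 9 were higher and 0 lower in limma (0 also at an unadjusted p under 0.05 and with voom), and 7 of the 9 differed more than in regular medium.

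The promoters of some of these genes are shown because the heat shock element they carry is the site at which HSF1 is known to bind, as a trimer on repeated GAA units. The element searched was GAANNTTC followed by NN and GAA, on either strand, in the 250 bases before and 50 after each start in the RefSeq promoter table (GRCh38.p14). Of 42 chaperone-list genes called higher that matched the table, 7 held it (16.7%), of the 56 other members 0 did, and of all 10461 tested genes that matched, 0.315% did (0.487% of all 27305 promoters). Among all genes called lower, 2 of 1132 held it. The lines below run 5′ to 3′ and end at the base before the start, with matches in capitals. HSPA6 lies at chr1:161524440-161524539 on the plus strand, HSPA8 at chr11:123062137-123062386 on the minus strand, CHORDC1 at chr11:90223050-90223149 on the minus strand and SERPINH1 at chr11:75562153-75562252 on the plus strand.
HSPA6: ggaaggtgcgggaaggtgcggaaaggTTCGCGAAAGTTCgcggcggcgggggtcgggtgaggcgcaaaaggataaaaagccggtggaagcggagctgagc
HSPA8: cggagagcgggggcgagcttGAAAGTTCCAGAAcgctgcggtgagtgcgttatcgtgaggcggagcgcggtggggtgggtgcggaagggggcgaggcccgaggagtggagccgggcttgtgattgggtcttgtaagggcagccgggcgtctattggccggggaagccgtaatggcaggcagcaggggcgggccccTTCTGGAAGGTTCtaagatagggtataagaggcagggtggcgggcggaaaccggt
CHORDC1: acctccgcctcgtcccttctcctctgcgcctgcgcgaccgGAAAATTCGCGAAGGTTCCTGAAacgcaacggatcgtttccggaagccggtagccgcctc
SERPINH1: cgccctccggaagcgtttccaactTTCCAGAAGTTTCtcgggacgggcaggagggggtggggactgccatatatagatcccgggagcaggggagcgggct

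CHORDC1 holds 3 overlapping matches, which begin 60, 55 and 50 bases before the start, and HSPA8 holds 2, at 230 and 55 bases. The single match of HSPA6 begins 74 bases before its start and that of SERPINH1 76 bases before it. Rank by matches did not follow rank by fold change, since HSPA6, with 1 match, rose by 3.09 and HSPA8, with 2, by 0.69. The windows of DNAJB1, HSPH1, BAG3 and HSPE1 do not hold these exact letters. A single window was searched for each gene, so sites at other starts of a gene were not seen. A shorter pair of units, GAANNTTC, is also part of the longer element. It was in 28.6% of the 42 raised chaperone genes, 3.57% of the 56 others and 4.71% of tested genes. A match is a description of the letters and not evidence of binding.

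NRF2 targets were raised with and without glucose. The shares over all genes were 9.04% higher and 10.6% lower in deprived medium, and 3.87% higher and 3.38% lower in regular medium. Of 32 tested targets 28 were higher in deprived KO cells and 1, TXNRD1, was lower, with a median log2 fold change of 0.59, beside 0.64 in regular medium, where 27 were higher and 0 lower in limma (1 at an unadjusted p under 0.05 and 0 with voom). The list was chosen with its rise already known, so its count is a description. HMOX1, which degrades heme, had 1104 and 1154 CPM in KO cells, against 278 and 259 CPM in EV cells (2.07 ± 0.049, adjusted p = 3.1e-09). Its difference in regular medium was 2.10, where EV cells held 9.55 CPM. The same was seen for SRXN1, which reduces hyperoxidised peroxiredoxins, with 302 and 289.6 CPM in KO cells and 170.1 and 166 CPM in EV cells (0.81 ± 0.033) and a regular difference of 0.89. For 8 of the 32 targets the difference was lower in deprived than in regular medium, and for 0 it was higher in limma (1 at an unadjusted p under 0.05 and 0 with voom). OSGIN1, an oxidative stress growth inhibitor, was among them, with 54.6 and 61.8 CPM in KO cells and 29.8 and 31.0 CPM in EV cells (0.93, against 1.79 in regular medium), and SLC7A11 was another (0.50, against 1.94). NFE2L2, the gene of NRF2, had 176 and 168 CPM in KO cells and 159 and 160.1 CPM in EV cells (0.10 ± 0.036, adjusted p = 0.073), while its inhibitor KEAP1 rose by 0.31 and BACH1, a repressor of HMOX1, did not pass the test (0.01 ± 0.050, adjusted p = 0.93). KEAP1 had 75.9 and 83.0 CPM in KO cells and 64.4 and 64.0 CPM in EV cells.

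The antioxidant response element was in the promoter windows of 6 of 24 matched NRF2 targets (25%), 15.2% of tested genes and 13.6% of all promoters in the table, and in 39 of 165 genes called higher by 0.5 or more (23.6%). Many known sites of NRF2 lie farther upstream than these windows reach. The window of GCLM (chr1:93909431-93909510, minus strand), the modifier subunit of the enzyme that starts glutathione synthesis, is shown for comparison with that of TXNRD1 above, because GCLM rose where TXNRD1 fell. The match is in capitals on the opposite strand and begins 34 bases before the start, whereas that of TXNRD1 begins 99 bases before it.
GCLM: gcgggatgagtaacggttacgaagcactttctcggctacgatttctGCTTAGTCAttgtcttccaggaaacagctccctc

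GCLM had 181 and 178 CPM in KO cells, against 101 and 102 CPM in EV cells (0.82 ± 0.042, adjusted p = 1.0e-06). Its catalytic partner GCLC rose by 0.47. GSR, which reduces glutathione with NADPH and so works in parallel to TrxR1, had 117 and 115 CPM in KO cells, against 75.2 and 76.2 CPM in EV cells (0.62 ± 0.037). Over all genes 9.04% were higher and 10.6% lower. Of 27 glutathione genes 10 were higher and 2 lower, and the 2 were not called without either EV library or KO library b. Of the thioredoxin system, TXN, the substrate of TrxR1, had 185 and 177 CPM in KO cells, against 135 in each EV library (0.43 ± 0.036, adjusted p = 4.3e-05), and PRDX1, a cytosolic peroxiredoxin, rose by 0.40. The mitochondrial reductase TXNRD2 did not pass the test, with 38.7 and 41.2 CPM in KO cells and 39.9 and 41.2 CPM in EV cells, nor did TXNRD3, at about 3 CPM in all 4 libraries (0.03 ± 0.12). TXNIP, the glucose-responsive inhibitor of thioredoxin, had 8.46 and 8.43 CPM in KO cells, against 11.04 and 9.91 CPM in EV cells (-0.31 ± 0.057, adjusted p = 0.0050), a call lost without EV library a (adjusted p = 0.053). In regular medium TXNIP averaged 79.6 CPM in KO cells and 86.3 CPM in EV cells.

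Several enzymes of the pentose phosphate pathway and of cytosolic NADPH supply rose, and 2 that act in mitochondria fell. PGD, a dehydrogenase of the pentose phosphate pathway, had 214 and 204 CPM in KO cells and 145 and 144 CPM in EV cells (0.53), TALDO1 and TKT rose by 0.48 and 0.31, and ME1, malic enzyme of the cytosol, by 0.67. Of 17 genes of the list 5 were higher and 2 lower, beside 9.04% higher and 10.6% lower over all genes. Those that fell were NNT, the transhydrogenase, at 119.6 and 115 CPM in KO cells against 142 and 148 CPM in EV cells (-0.30 ± 0.036), and ALDH1L2, an NADPH-forming folate dehydrogenase, at 109.7 and 105 CPM in KO cells against 144 and 139 CPM in EV cells (-0.40 ± 0.046). ALDH1L2 lies in the chromosome 12 segment described above. The rises of PGD and ME1 were of the same order in regular medium, where PGD differed by 0.53 and ME1 by 0.77, and in the test of the interaction 1 gene of the list was higher and 2 lower.

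ER chaperones fell, opposite to the chaperones of the cytosol. The shares over all genes were 10.6% lower and 9.04% higher. Of 30 tested ER chaperones and folding enzymes 15 were lower and 0 higher in limma (0 also at an unadjusted p under 0.05 and with voom), with a median log2 fold change of -0.15. The falls were modest and the levels high. HYOU1, the HSP110 of the ER, had 1868 and 1779.6 CPM in KO cells, against 2341 and 2173 CPM in EV cells (-0.31 ± 0.042, adjusted p = 0.0010), and PDIA4, a disulfide isomerase, had 1452 and 1462 CPM in KO cells, against 1750.5 and 1672 CPM in EV cells (-0.23 ± 0.035). CRELD1, a relative of the ER protein CRELD2, fell by 0.35. HSPA5, the ER HSP70 known as BiP, had 8152 and 7704 CPM in KO cells, against 9041 and 8551 CPM in EV cells (-0.15 ± 0.039, adjusted p = 0.025), a call that was lost without EV library a (adjusted p = 0.20), EV library b (0.051) or KO library b (0.087). The count of 15 was 6 without EV library a, 8 without EV library b and 10 without KO library b. In regular medium 10 of the 30 were lower in KO cells (median -0.13), at levels a fraction of those without glucose, since HSPA5 averaged 745 CPM in KO cells and 967 CPM in EV cells. SYVN1, a ubiquitin ligase of ER-associated degradation, fell by 0.30, and XBP1, whose product drives ER chaperone genes, rose to 491 and 486 CPM in KO cells, against 418 and 409 CPM in EV cells (0.24 ± 0.031). The table does not separate the spliced from the unspliced XBP1 message.

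The promoter window of HSPA5 (RefSeq, GRCh38.p14, chr9:125241344-125241443, minus strand) is shown because it carries the ER stress element, CCAAT and CCACG with 9 bases of any kind between them, a known site of ATF6 with NF-Y. The line ends at the base before the start, with the match in capitals. It was in 6 of 28 matched ER chaperones (21.4%), in 0 of the 42 raised cytosolic and mitochondrial chaperone genes and in 0.134% of tested genes. Of the 14 tested genes that hold it in their promoter window, 8 were lower, among them HSPA5, HSP90B1, CALR, CRELD2 and FICD. Of the others 1, XBP1, was higher and 5 were not called. FICD lies in the chromosome 12 segment described above, and HSP90B1 in the 10 Mb before TXNRD1. The 8 were 3 without EV library a, 4 without EV library b and 5 without KO library b.
HSPA5: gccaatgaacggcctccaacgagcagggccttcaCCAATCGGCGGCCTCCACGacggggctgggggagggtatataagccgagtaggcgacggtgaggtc

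Genes of mitosis were lower in deprived KO cells, and 18 of 49 DNA replication genes were higher. The shares over all genes were 10.6% lower and 9.04% higher. Of 58 mitosis genes 43 were lower and 0 higher in limma (0 also at an unadjusted p under 0.05 and with voom), at a median log2 fold change of -0.24, beside -0.02 in regular medium, where 1 was lower, and for 23 of the 58 the difference was lower than in regular medium. The count of 43 was 31 without EV library a, 26 without EV library b and 34 without KO library b, and the 23 were 8 without EV library a, 7 without EV library b, and 7 and 9 without EV_Regular library a or b. PIF1, a helicase that peaks late in the cell cycle, had 19.7 and 19.2 CPM in KO cells, against 28.8 and 28.96 CPM in EV cells (-0.57 ± 0.043, adjusted p = 2.0e-05). PSRC1, a spindle protein, had 45.3 and 44.8 CPM in KO cells, against 60.0 and 59.8 CPM in EV cells (-0.41 ± 0.040). PLK1, the mitotic kinase, had 199.8 and 203 CPM in KO cells, against 259.7 and 270.0 CPM in EV cells (-0.39 ± 0.038). The KO libraries lay below the EV libraries for each of these genes with little spread. In bulk libraries fewer cells in mitosis and less of the message per cell cannot be told apart. Of 49 replication genes 18 were higher and 3 lower, among them ORC6, a subunit of the origin recognition complex, at 27.7 and 28.3 CPM in KO cells and 21.9 and 22.2 CPM in EV cells (0.35 ± 0.043), and DTL, a substrate receptor of the CUL4 ligase in S phase, which rose by 0.30. That count of 18 rested on the EV libraries, being 6 without EV library a and 5 without EV library b, and the 3 falls were 1 without either. MCM7, a helicase subunit, fell by 0.30.

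The promoters of PLK1 and of CDC20 and CCNB2, a pair chosen after their values were seen, are shown because they carry both the cell cycle homology region, TTTGAA, at which the MuvB complex is known to bind, and CCAAT boxes, the site of NF-Y. CDC20, the activator of the anaphase-promoting complex, had 289 and 306 CPM in KO cells, against 371 and 368 CPM in EV cells (-0.31), and CCNB2, a B-type cyclin, had 121 and 111 CPM in KO cells, against 147 and 150.1 CPM in EV cells (-0.36). TTTGAA was in 24 of 38 matched mitosis genes called lower (63.2%), in 7 of the 12 other mitosis genes (58.3%) and in 10% of tested genes. In the 250 bases before the start alone the shares were 50%, 25% and 8.69%. It was more frequent in the list than over tested genes. Whether it also went with the call depended on the window and rests on 12 other genes. CCAAT was in 78.9% of the 38 and 37.1% of tested genes. Each line ends at the base before the start, with both motifs in capitals and read on either strand (RefSeq, GRCh38.p14, PLK1 at chr16:23678789-23678888, CDC20 at chr1:43358851-43358980 and CCNB2 at chr15:59105016-59105145, all on the plus strand).
PLK1: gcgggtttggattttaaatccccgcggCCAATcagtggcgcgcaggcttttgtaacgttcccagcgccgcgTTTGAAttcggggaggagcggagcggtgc
CDC20: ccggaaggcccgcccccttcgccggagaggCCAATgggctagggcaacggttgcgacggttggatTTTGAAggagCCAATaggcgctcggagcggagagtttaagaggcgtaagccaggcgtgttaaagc
CCNB2: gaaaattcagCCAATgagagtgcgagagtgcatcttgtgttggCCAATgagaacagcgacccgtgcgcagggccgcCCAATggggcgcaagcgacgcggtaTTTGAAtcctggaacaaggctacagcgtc

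Immediate early genes, which stress and growth factor signals switch on within minutes, were higher in deprived KO cells. Of 38 immediate early and feedback genes 23 were higher and 5 lower (median 0.30, beside -0.01 in regular medium). Of 13 AP-1 genes 7 were higher and 1 lower. The shares over all genes were 9.04% higher and 10.6% lower. FOSB, an AP-1 subunit, had 30.4 and 32.0 CPM in KO cells, against 13.1 and 13.7 CPM in EV cells (1.21 ± 0.10, adjusted p = 4.3e-05). GEM, a small GTPase, had 50.5 and 51.9 CPM in KO cells, against 25.2 and 26.3 CPM in EV cells (0.99 ± 0.044). In both genes the libraries of each group lay close together and the groups far apart. JUN, the dimer partner of FOS proteins, had 160.4 and 219 CPM in KO cells and 103 and 105 CPM in EV cells (0.85 ± 0.11), with a 1.37-fold gap between the KO libraries. ATF3, which pairs with JUN, had 140.0 and 147 CPM in KO cells and 85.7 and 85.4 CPM in EV cells (0.74). ZFP36, which marks mRNAs for decay, and HBEGF, a ligand of the EGF receptor, rose by 0.98 and 0.93. IER5L had 7.54 and 17.1 CPM in KO cells and 5.50 and 4.16 CPM in EV cells (1.24 ± 0.30, adjusted p = 0.016), and its call was lost without EV library b, with voom and without the variance trend (adjusted p of 0.0512 to 0.127). Its KO libraries differed 2.28-fold and the GC content of its transcript was 65%, the part of which in the difference was not tested. For 16 of the 38 genes the difference between KO and EV was higher in deprived than in regular medium and for 4 it was lower. Without EV library b 15 of the 38 were higher, and for 9 the interaction was. The 5 falls were 1 without either EV library or KO library b.

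BMP-responsive genes were higher in deprived KO cells, whereas in regular medium their median lay below the EV level. ID2, an inhibitor of helix-loop-helix factors, had 35.7 and 40.0 CPM in KO cells, against 10.1 and 10.8 CPM in EV cells (1.85 ± 0.066, adjusted p = 9.0e-08), while in regular medium it averaged 13.5 CPM in KO cells and 15.98 CPM in EV cells. ID4 had 7.22 and 8.04 CPM in KO cells, against 4.27 and 5.28 CPM in EV cells (0.68), and BMP4, a ligand upstream of them, had 11.1 and 11.5 CPM in KO cells, against 7.63 and 7.06 CPM in EV cells (0.62). ID1 and ID3 were also called but with a wider spread. ID1 had 18.5 and 25.8 CPM in KO cells and 14.4 and 14.9 CPM in EV cells (0.57 ± 0.12), a call lost without EV library a (adjusted p = 0.067) or EV library b (0.053), and ID3 lost its call without EV library a (adjusted p = 0.24) or KO library b (0.19). In EV cells ID1 stood at 137 CPM in regular medium, a level far above that of either deprived group. Of 24 ID genes and BMP or TGF-beta targets 11 were higher and 2 lower, beside 9.04% higher and 10.6% lower over all genes. The median of the 24 was 0.20, beside -0.10 in regular medium. For 10 of them the difference was higher than in regular medium, beside 2.31% over all genes. The 11 were 5 without EV library a and 6 without EV library b, and the 10 were 5 without either of them, 6 without KO library b and 4 without either EV_Regular library. The 2 falls were 1 without either EV library or KO library b. TGIF1, a corepressor of SMAD signalling, fell to 62.3 and 60.4 CPM in KO cells, against 79.0 and 76.2 CPM in EV cells. SNAI1, a repressor of epithelial genes, had 56.3 and 57.4 CPM in KO cells, against 24.1 and 23.7 CPM in EV cells (adjusted p = 2.0e-07), and SOCS3, which restrains JAK signalling, had 38.7 and 40.1 CPM in KO cells, against 19.7 and 19.3 CPM in EV cells (1.01 ± 0.044).

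Secreted factors did not share a direction. PGF, placental growth factor, had 5.72 and 6.002 CPM in KO cells, against 1.90 and 1.71 CPM in EV cells (1.69 ± 0.11, adjusted p = 8.2e-06). CXCL8, interleukin 8, rose by 0.60 and ADM, the vasodilator adrenomedullin, by 0.53. LIF, a cytokine of the interleukin 6 family, had 476 and 448 CPM in KO cells, against 583 and 571 CPM in EV cells (-0.32 ± 0.048), whereas in regular medium it averaged 264 CPM in KO cells and 223 CPM in EV cells. The interaction of LIF was -0.57 (adjusted p = 0.0016), so its order reversed between the media. TGFA, a ligand of the EGF receptor, fell by 0.31. Of 21 secreted factors 7 were higher and 3 lower, beside 9.04% higher and 10.6% lower over all genes.

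Genes of cell death and of the p53 response were counted by list. BCL2L11, the BH3 protein BIM, had 27.1 and 28.9 CPM in KO cells, against 19.5 and 19.1 CPM in EV cells (0.53 ± 0.052, adjusted p = 0.00012), and it did not pass the test in regular medium, at 17.3 CPM in KO cells and 17.5 CPM in EV cells. BID, which links death receptors to mitochondria, rose by 0.39 and PMAIP1, the BH3 protein NOXA, by 0.26. In the list of BCL2 family and death receptor genes 6 of 26 were higher and 4 lower, beside 9.04% higher and 10.6% lower over all genes, counts that were 3 and 1 without EV library b, and the falls were 2 without EV library a or KO library b. Of 27 p53 targets 4 were higher and 8 lower. RRM2B, a subunit of ribonucleotide reductase, had 92.8 and 88.2 CPM in KO cells, against 116 and 109.5 CPM in EV cells (-0.32 ± 0.049), and DDB2, XPC and FBXO22 fell by 0.25, 0.20 and 0.25. Of the p53 list SESN2, a sestrin that ATF4 also drives, rose to 285 and 303 CPM in KO cells, against 222 and 214 CPM in EV cells (0.43 ± 0.045), and GADD45B, a stress gene of the DNA repair list, to 57.9 and 67.1 CPM in KO cells, against 31.9 and 30.9 CPM in EV cells (0.99). The 8 falls were 6 without EV library a and 5 without EV library b, and the 4 rises were 2 without EV library a or KO library b and 1 without EV library b.

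Pathways that clear proteins changed in part. Of 40 proteasome subunits 10 were higher and 1 lower (median 0.08), a fall not called without either EV library or KO library b, led by PSMD12 and PSMD11, lid subunits of the regulatory particle, which rose by 0.30 and 0.22. The count of 10 was 4 without EV library a, 2 without EV library b and 21 after a trend on GC content had been removed from each library, so it depended on the libraries. SQSTM1, the autophagy receptor p62, had 1538 and 1537 CPM in KO cells, against 1029 and 1001 CPM in EV cells (0.60 ± 0.033, adjusted p = 1.8e-06). GABARAPL1, an ATG8 protein, had 24.0 and 22.5 CPM in KO cells, against 14.9 and 14.1 CPM in EV cells (0.68 ± 0.066), and MAP1LC3B, another, rose by 0.36. Of 31 autophagy genes 5 were higher and 3 lower, beside 9.04% higher and 10.6% lower over all genes. The rises were 3 without either EV library, and the falls were 0 without EV library a or KO library b and 1 without EV library b.

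The factors of the integrated stress response, which slows translation under stress, did not pass the test in deprived medium. ATF4 had 896 and 862 CPM in KO cells and 913 and 882 CPM in EV cells (-0.03 ± 0.034, adjusted p = 0.57), and DDIT3, the factor CHOP, had 419 and 393 CPM in KO cells and 435 and 417 CPM in EV cells (-0.07 ± 0.042, adjusted p = 0.28). In regular medium DDIT3 averaged 19.1 CPM in KO cells and 17.5 CPM in EV cells. ATF4 was called higher in KO cells there, at 428 CPM against 357 CPM in EV cells (0.26, limma adjusted p = 0.0015). The interaction of ATF4 was -0.29 (adjusted p = 0.0085). Of 36 ATF4 targets 13 were higher and 3 lower, and 7 were higher without EV library a, EV library b or KO library b, while the falls were 0 without either EV library and 1 without KO library b. Over all genes 9.04% were higher and 10.6% lower. PPP1R15A, which reverses eIF2alpha phosphorylation, rose by 0.40. DDIT4, an inhibitor of mTORC1, had 329 and 368 CPM in KO cells and 282 and 272 CPM in EV cells (0.33 ± 0.055), and was lower in KO cells in regular medium (-0.34), an interaction of 0.67 (adjusted p = 0.0013).

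Of 35 matrix and adhesion genes tested (collagens, laminins and integrins), 14 were lower and 3 higher (median -0.09), beside 10.6% lower and 9.04% higher over all genes. COL8A1, a short-chain collagen, had 144 and 138 CPM in KO cells, against 176 and 179 CPM in EV cells (-0.34 ± 0.035, adjusted p = 0.00018). THBS2, a matrix glycoprotein, had 599 and 564 CPM in KO cells, against 729 and 686 CPM in EV cells (-0.28), and the integrin subunits ITGA6 and ITGA3 fell by 0.26 and 0.23. The falls of THBS2 and ITGA6 were as large in regular medium, at -0.29 and -0.26. The count of 14 was 7 without EV library a, and the 3 rises were 0 without either EV library in limma. SERPINH1, which folds collagen and is raised by heat shock, moved the opposite way. ACTG1, cytoplasmic actin, had 4026 and 4004 CPM in KO cells, against 4661 and 4672 CPM in EV cells (-0.22 ± 0.031), while in regular medium it was higher in KO cells (0.12), an interaction of -0.34 (adjusted p = 0.0024).

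KO and EV cells share the TAZ construct. WWTR1, the gene of TAZ, whose own reads and those of a construct were not told apart here, had 309 and 306 CPM in KO cells and 324 and 342 CPM in EV cells (-0.11 ± 0.035, adjusted p = 0.049), a call lost when any of the 4 libraries was left out (adjusted p of 0.064 to 0.34), and without a filter, without the variance trend or with the 4 deprived libraries alone. In regular medium WWTR1 averaged 324 CPM in KO cells and 362 CPM in EV cells (-0.16, limma adjusted p = 0.024). Its interaction was 0.05 (adjusted p = 0.61). YAP1 did not pass the test in deprived cells, with 48.8 and 47.4 CPM in KO cells and 48.3 and 48.6 CPM in EV cells. Of 26 YAP/TAZ targets 6 were higher and 5 lower, beside 9.04% higher and 10.6% lower over all genes, and the 5 were 2 without EV library a and 3 without EV library b or KO library b. In regular medium 9 were higher. CCN1 and CCN2, the matricellular targets used most often as readouts, did not pass the test in deprived cells. CCN1 had 142 and 151 CPM in KO cells and 144 in each EV library (0.03 ± 0.037, adjusted p = 0.65), and its difference in regular medium was 0.42, an interaction of -0.40 (adjusted p = 0.0026). CCN2 had 67.8 and 68.0 CPM in KO cells and 69.0 and 72.6 CPM in EV cells (-0.06), beside 0.25 in regular medium. ANKRD1, another target, had 3.76 and 3.53 CPM in KO cells, against 2.07 and 2.08 CPM in EV cells (0.81 ± 0.10), and F3, tissue factor, rose by 0.64.

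In regular medium 8 of 17 glioma stem and glial genes were lower in KO cells and 1 higher, at a median of -0.22. Over all genes 3.38% were lower there and 3.87% higher. In deprived KO cells 6 of the 17 were lower and 4 higher, at a median of -0.04, beside 10.6% lower and 9.04% higher over all genes. The falls were 3 without EV library b and the rises 2 without EV library a. POU3F2, a neural transcription factor of glioma stem cells, had 19.1 and 19.2 CPM in KO cells, against 25.9 and 26.2 CPM in EV cells (-0.44 ± 0.045, adjusted p = 0.00015). S100B, a glial calcium-binding protein, fell by 0.40, a value close to that in regular medium (-0.46). SOX4 differed by medium, at 14.4 and 16.5 CPM in KO cells against 12.2 and 12.1 CPM in EV cells without glucose (0.35) and -0.33 in regular medium. SOX2, the stem cell factor, had 15.1 and 15.2 CPM in deprived KO cells and 16.9 and 16.7 CPM in deprived EV cells (-0.15, adjusted p = 0.044). That call was lost when any of the 4 libraries was left out, with voom, without the variance trend or with the 4 deprived libraries alone. In regular medium SOX2 averaged 38.7 CPM in KO cells and 55.1 CPM in EV cells (-0.51, limma adjusted p = 0.00013).

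Of 28 glycolysis and glucose uptake genes 6 were higher and 3 lower, beside 9.04% higher and 10.6% lower over all genes. The 6 were 4 without either EV library, and the 3 were 0 without EV library a and 1 without EV library b or KO library b. The transporter SLC2A3 rose to 19.7 and 18.6 CPM in KO cells, against 13.9 and 14.0 CPM in EV cells (0.46 ± 0.062), while SLC2A1 did not pass the test (0.07 ± 0.034, adjusted p = 0.17). Of 56 nuclear genes of the respiratory chain 0 were higher in limma (2 at an unadjusted p under 0.05 and 0 with voom) and 2 lower, and without KO library a 6 were higher and 6 lower. The 2 falls were 0 without either EV library or KO library b. Of 75 cytosolic ribosomal proteins 1 was higher and 2 lower (median -0.01), and without KO library a 4 were higher and 4 lower, while without either EV library or KO library b 0 were higher and 1 lower. Of 19 genes of the WAVE and RAC pathway, which disulfide stress is known to involve, 2 were higher and 1 lower, a fall not called without either EV library or KO library b. Of 20 interferon response genes 0 were higher in limma (1 at an unadjusted p under 0.05 and 0 with voom) and 2 lower, and 2 were higher without KO library a and 0 lower without EV library a.

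**Figure D5:**
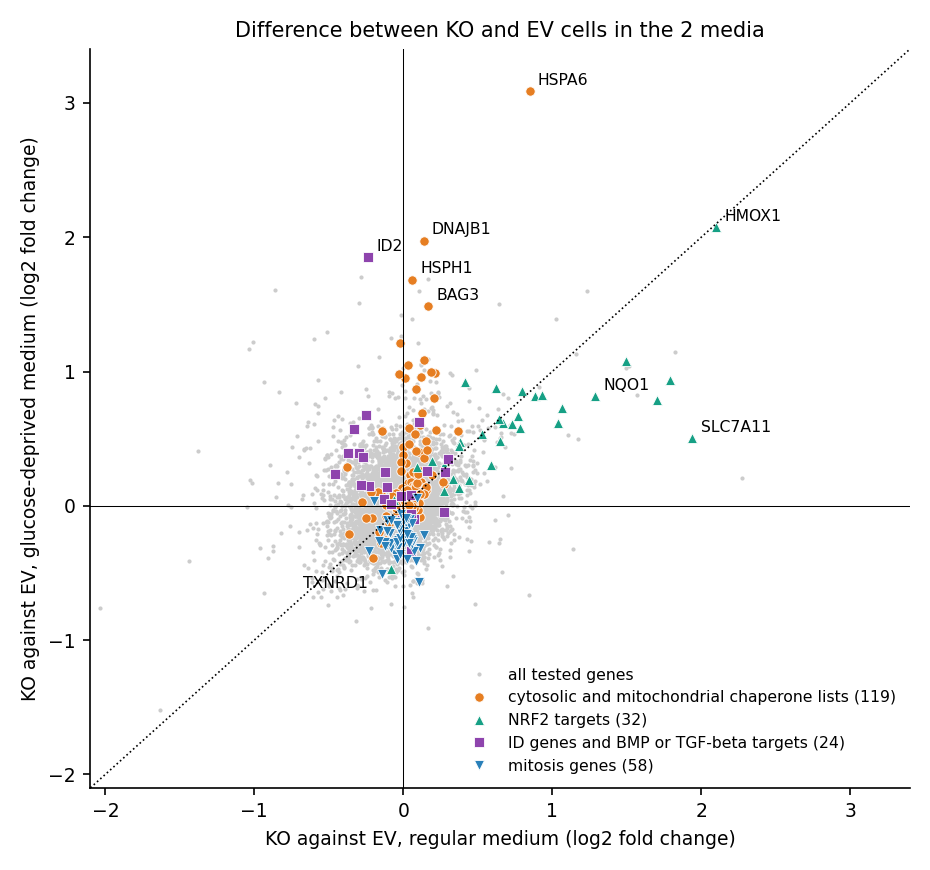
Log2 fold change of KO against EV cells in glucose-deprived medium (y axis) against that in regular medium (x axis) for each tested gene, with 4 groups marked and 2 genes outside the axes, and the dotted line marks equal differences. HSPA6 and DNAJB1, at 3.09 and 1.98 without glucose, lie high above the line, SLC7A11 (0.50, against 1.94 in regular medium) lies below it and HMOX1 (2.07, against 2.10) lies on it.

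The plot of both media places the groups. Chaperone genes and ID2 spread along the axis of deprived medium, and NRF2 targets spread along both. The 2 contrasts share no library but come from the same 2 kinds of cell. Mitosis genes form a tight group below 0 on the axis of deprived medium.

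Among the largest falls, LINC01583, a long non-coding RNA, had 9.67 and 10.5 CPM in KO cells, against 17.4 and 16.6 CPM in EV cells (-0.75 ± 0.096, adjusted p = 0.00067), and about 1 CPM in every regular group. CTDSP1, a phosphatase of RNA polymerase II and of SMADs, had 52.2 and 48.4 CPM in KO cells, against 79.8 and 79.3 CPM in EV cells (-0.66 ± 0.055), and differed by -0.40 in regular medium. ERBB3, a receptor of the EGF receptor family, had 129 and 122 CPM in KO cells, against 165 and 177 CPM in EV cells (-0.44), with -0.54 in regular medium, and FREM2, a basement membrane protein, fell by 0.45. FICD, an enzyme that modifies HSPA5, and TXNRD1 are among the 20 largest falls and both lie in the chromosome 12 segment.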

How the data were processed

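According to the labels' protocols, TRIzol-extracted RNA went into a SMART-Seq mRNA and Nextera XT preparation, which does not mark strand, so reads of overlapping and antisense genes are not separable. HISAT2, edgeR and GRCh38 are named in the submitters' processing notes, while the counting tool and filters are not given in the sources used here. The authors deposited log2 CPM per gene for 13730 Entrez IDs, a scale read from the values. Reads came out whole for 100% of values (tolerance 0.05), and 1 read was worth 0.0095 to 0.0143 CPM. Printed CPM are the deposited log2 values made linear, less the offset of 0.023 CPM.

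A model of 4 group means over the 8 libraries was fitted to the log2 values with limma 3.58.1 (R 4.3.3), with a variance trend, 4 residual and 6.29 prior degrees of freedom. Two-sided p-values were adjusted by Benjamini-Hochberg over the 13057 genes whose mean log2 CPM reached 0 (673 lay below), and calls needed an adjusted p under 0.05. Errors are limma's standard errors. The steps were tested on simulated data. Count tests planned for raw counts gave way to this test because the table holds log2 values, and voom on recovered reads was added after seeing the data. Promoter windows were matched by Entrez ID to RefSeq (GRCh38.p14). Figures were drawn with matplotlib 3.10.9.

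The members, gene lists and rules were chosen with earlier results of these data known. Genes named are a panel, the 20 largest rises and 20 largest falls among called genes with no overlap between groups and at least 10 CPM in the higher group, up to 6 called genes of each list with the smallest adjusted p, and any member of lists of up to 35 genes. Genes outside this rule are marked as chosen after their values were seen.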

Additional observations from a re-analysis of the deposited data

Results flagged for a closer look

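The difference between KO and EV cells itself differed between glucose-deprived and regular medium for 32 of the 55 genes taken from the fixed panel and the largest changes, in limma's test of the interaction at an adjusted p under 0.05 over all genes. Values are the log2 fold change of KO against EV cells in glucose-deprived medium less that in regular medium, and 18 were positive and 14 negative. Over all 13057 genes 4.31% passed this test. The largest changes had been picked by their difference in deprived medium, which is part of the interaction. That favours large values of the same sign, so 32 of 55 cannot be weighed against that share.

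Among chaperone genes the interaction was 2.24 for HSPA6, 1.84 for DNAJB1, 1.63 for HSPH1, 1.32 for BAG3, 1.02 for HSPE1, 0.95 for DNAJA1 and 0.82 for DNAJB4. Among signalling and transcription genes it was 2.09 for ID2, 1.98 for FOS, 1.84 for IER5L, 1.5 for RGS2, 1.44 for DUSP1, 1.35 for DLX2, 1.33 for SNAI1, 1.24 for IER5, 1.11 for FOSB, 0.88 for SOCS3 and 0.36 for SOX2. KO library b was 1.59-fold above KO library a for DLX2 and 2.28-fold for IER5L, whose transcripts are GC-rich (59.9% and 65%), and the part of this in their values was not tested.

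Of the negative values, SLC7A11 had -1.44, KCNE4 -0.68 and NQO1 -0.47, genes that were higher in KO cells in both media and less so without glucose. ATF4 had -0.29 and was called higher in KO cells in regular medium alone. The other negative values belong to genes lower in deprived KO cells, with -1.16 for CNOT3, -0.76 for LINC01583, -0.67 for PIF1, -0.48 for the gene with Entrez ID 105371921, -0.46 for TMEM106A, -0.44 for MANSC1, -0.42 for STARD8, -0.39 for TXNRD1, -0.37 for KIF20A and -0.32 for TNFAIP8L1. The fall of CNOT3 in deprived KO cells lost its call in 6 settings (adjusted p of 0.0509 to 0.305), namely without EV_Glu- library a, KO_Glu- library a or either EV_Regular library, without a filter and without the variance trend.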

How the results depend on the processing

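No paired analysis was possible because the columns carry no replicate number. The planned count tests and replicate block were not run, since the table holds log2 values. The total of 2561 called genes (1181 higher, 1380 lower) ranged from 852 to 3058 when any of the 8 libraries was left out (450 to 1396 higher, 393 to 1662 lower). It was 2019 with the 4 glucose-deprived libraries alone, 1839 without the variance trend, 2476 with genes above a log2 CPM of 2, 2521 without a filter, 2577 on log2(CPM + 1), 2560 under median-of-ratios scaling and 2547 with voom on the recovered reads. Removing a trend on GC content from each library, an alternative chosen after seeing the data, raised the total to 3922 and the higher calls to 1915, and the lower calls to 2007. Among the panel, the largest changes and the list genes with the smallest adjusted p, no gene called in the main fit reversed under any setting run. Genes that were not called were left out of this check. The other scaling shifted libraries by at most 0.0071 on the log2 scale.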

Other observations

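Of 649 long non-coding RNAs tested, 16 were higher (2.47%) and 87 lower (13.41%), at a median log2 fold change of -0.09, beside -0.06 in regular medium, whereas of 12018 coding genes 1151 were higher (9.58%) and 1265 lower (10.5%). Among genes at 5 CPM or more, 9 of 235 long non-coding RNAs were higher and 52 lower (22.1%), beside 11.7% lower among 10420 coding genes. The 87 falls were 14 without EV library a, 13 without EV library b, 56 without KO library a and 35 without KO library b, where all genes called lower numbered 393, 402, 1403 and 706 in the same order of repeats, against 1380 with every library. Their GC content, length and isoforms were not compared, and libraries of this kit give no strand.

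Some genes outside the lists, chosen after their values were seen, were also higher in deprived KO cells. CACYBP, a partner of the ubiquitin ligase SIAH1, rose by 0.61, and the ubiquitin ligase subunit FBXO30 by 0.69. CLU, the extracellular chaperone clusterin, rose by 0.84. ABHD3 and DOCK10, which rose by 0.74 and 0.40, hold the heat shock element searched above in their promoter windows. NMRAL2P, a pseudogene, rose by 0.88 in deprived KO cells, against 3.43 in regular medium.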
